A study of Rattus norvegicus with 8 samples.

Results

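The axon guidance ligands and receptors of the rat nodose ganglion were read from nuclear RNA, gene by gene. The members were the rows of the deposited gene list whose symbol named a semaphorin of classes 3 to 7, a plexin, a neuropilin, a slit, a roundabout receptor, a netrin or netrin-G, Dcc, an Unc5 receptor, an ephrin or an Eph receptor. The rule found 70 of 30560 genes, 33 receptors and 37 ligands, and used no measured value. Nodose ganglia, which house the cell bodies of vagal sensory neurons, came from experimentally naïve Long Evans rats of 8 weeks, 18 male and 18 female. Each of 12 pools combined the ganglia of 1 side from 6 rats, with 3 pools each for male left, male right, female left and female right. Fixed nuclei of all pools were barcoded with Evercode v2 chemistry, spread over 8 sublibraries and counted as UMIs, single captured transcripts. With 18 rats of a sex and 6 in a pool, left and right pools would draw on the same rats, so the sides are not separate animals, and a pool hides the spread between rats. Pools are written by label, so that ML1 is male, left, pool 1, and FR3 is female, right, pool 3.

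The sex labels of 2 pools went against their RNA. Summed over 4 Y-linked genes in neurons, ML1 had 3.13 CPM (counts-per-million, a gene's UMIs as a share of all UMIs of a pool and class, scaled to a common total) and FL1 had 82.4, against 78.5 to 83.8 in the remaining pools labelled male and 2.91 to 3.64 in those labelled female. The groups are therefore called male-labelled and female-labelled, and results are given with and without both pools. The matrix of 36741 nuclei held 139965360 UMIs, with a median of 2680 in a nucleus and, after 3 nuclei were removed, 7139364 to 19456287 in a pool. Of these nuclei 3808 carried a well combination that occurred in more than 1 sublibrary, which were kept as separate nuclei, and the doublet caller marked only 2, so it had not worked and doublets remain. Clusters were named by likeness to marker lists, and the names below are short for neuron-like, satellite glia-like and so on: 26548 neurons (72.3%), 4039 satellite glia (10.99%), 1124 myelinating Schwann cells, 842 endothelial cells, 569 skeletal muscle nuclei, 169 mural cells, 62 fibroblasts and 3385 nuclei left unnamed. Neuron RNA was also counted in glial nuclei: the 12 neuron markers summed to 11077 CPM in neurons and 9484 in satellite glia, and free RNA, doublets and mixed clusters were not told apart. Throughout, levels are in CPM, and levels of different genes are not compared because gene length is not corrected for.

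Growing axons read guidance cues through a few ligand and receptor systems. Slits bind roundabout (Robo) receptors and mostly repel, netrins attract through Dcc and repel through Unc5 receptors, secreted semaphorins act through neuropilins that pair with plexins, and membrane semaphorins bind plexins directly. Ephrins are tethered to the cell surface and signal by contact with Eph receptors of neighbouring cells, in both directions. In the adult these families also act in synapse upkeep, in contact between glia and axons, in nerve repair and in blood vessels, where Nrp1 serves vascular growth factor and Plxnd1 binds Sema3e. Vagal sensory neurons of the nodose ganglion derive from a placode, and those of the fused jugular ganglion from the neural crest.

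All 70 members had UMIs, from 14 to 185468 with a median of 4376, and 4 had fewer than 50. Ranked by level over the 7 named classes, 22 members were highest in neurons, 14 in glia (13 in myelinating Schwann cells and Ephb1 in satellite glia) and 34 in vascular, fibroblast or muscle nuclei. Many of the last ranks rest on few UMIs: where the highest class held at least 50 UMIs, 20 members were highest in neurons, 12 in glia and 14 elsewhere. Among the 47 members with at least 1000 UMIs over these classes the counts were 18, 10 and 19, where 19.3%, 25.7% and 54.9% of 9786 genes were highest in neurons, glia and elsewhere. Neurons hold most of the UMIs, so the limit of 50 is met most easily there. Receptors were highest in neurons in 14 of 33 cases and ligands in 8 of 37, and with the limit in 14 of 26 and 6 of 20. For these counts by kind no share over all genes was taken. By family and without the limit, 4 of 5 netrin receptors and 5 of 9 EphA receptors were highest in neurons. None of 5 EphB receptors or 2 neuropilins was. Of 13 membrane semaphorins 2 were highest in neurons, 5 in glia and 6 elsewhere. These ranks describe summed counts, and the fibroblast and mural classes rest on few nuclei.

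Some receptors for netrins and slits, the ephrin-A ligand Efna5 and the receptor Epha6 were higher in neurons than in satellite glia. Unc5c, a receptor for repulsion by netrins, had 961 ± 75.6 CPM in neurons (SD, n = 12 pools; lowest, median and highest 795, 975 and 1043) and 413 ± 33.2 in satellite glia (381, 404 and 485). Every neuron value lay above every glial value. Robo2, a slit receptor, had 815 ± 54.5 in neurons (719, 811 and 909) and 336 ± 25.7 in satellite glia (298, 335 and 374), again without overlap. Efna5, an ephrin-A ligand that is anchored in the outer membrane leaflet, had 1560.0 ± 82.3 in neurons (1415, 1583 and 1692) and 581 ± 89.1 in satellite glia (487, 547 and 802). Epha6, an ephrin-A receptor, had 366 ± 50.4 (285, 366 and 446) and 132 ± 17.2 (101, 133 and 159), so that neurons lay above glia in all pools for each of these genes. Of the other receptors for netrins and slits, Dcc, Unc5a and Unc5b overlapped between neurons and satellite glia, Unc5d and Robo1 did not, and Robo3 had too few UMIs.

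Of 63 members with at least 100 UMIs in neurons and satellite glia together, 17 were higher in neurons in all 12 pools, where 7.98% of the 14423 genes were, and 13 were higher in satellite glia, where 12.7% were. A further 33 overlapped and 7 members had too few UMIs. The 17 were the receptors Robo1, Robo2, Unc5c, Unc5d, Epha6, Epha7, Epha10, Plxna1, Plxna3 and Plxna4, and the ligands Efna5, Efnb2, Ntng1, Sema3c, Sema4d, Sema4f and Slit1. Their satellite glia level was 0.362 to 0.721 of the neuron level, with a median of 0.465. The 12 neuron markers had a median ratio of 0.808, from 0.400 to 1.504, so that only Epha6 (0.362), Epha7 (0.363), Efna5 (0.372) and Epha10 (0.396) lay below every marker. How far such neuron RNA makes up the glial values of the members was not tested. No test was made between classes, since the clusters were drawn from the same nuclei.

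Robo2 and Epha6 carried several of the side and sex calls given below, and the secreted semaphorin Sema3e had the smallest p by side of the members over all neurons, so the 250 bases upstream of their starts are shown, 5′ to 3′ on the gene's strand, from RefSeq on GRCr8. Robo2 lies at chr11:26526413-26526662 (minus strand), Epha6 at chr11:53226534-53226783 (plus strand) and Sema3e at chr4:21510375-21510624 (minus strand). Capitals mark GGGCGG, the core of a GC box, and TAAT, the core of many homeodomain sites, on either strand, where overlapping matches run together.
Robo2: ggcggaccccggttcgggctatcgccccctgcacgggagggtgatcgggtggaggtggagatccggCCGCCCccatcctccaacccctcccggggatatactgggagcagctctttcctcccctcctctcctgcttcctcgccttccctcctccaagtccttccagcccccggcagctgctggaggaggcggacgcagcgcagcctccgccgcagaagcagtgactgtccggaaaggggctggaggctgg
Epha6: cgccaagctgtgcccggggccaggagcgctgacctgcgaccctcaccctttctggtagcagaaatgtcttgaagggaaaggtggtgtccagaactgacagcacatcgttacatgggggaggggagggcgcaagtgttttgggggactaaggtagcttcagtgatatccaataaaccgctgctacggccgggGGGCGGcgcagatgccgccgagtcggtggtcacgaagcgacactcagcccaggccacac
Sema3e: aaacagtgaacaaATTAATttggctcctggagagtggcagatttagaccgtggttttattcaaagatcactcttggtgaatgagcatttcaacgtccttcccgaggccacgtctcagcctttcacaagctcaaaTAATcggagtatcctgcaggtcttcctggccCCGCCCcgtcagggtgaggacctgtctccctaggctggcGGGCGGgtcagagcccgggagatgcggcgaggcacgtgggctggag
Robo2 and Epha6 held 1 GGGCGG each and no TAAT, at 69.2% and 61.2% GC, and Sema3e held 2 GGGCGG and 3 TAAT at 55.6% GC. Among 33469 rat promoter windows, 30.5% held GGGCGG and 56.97% held TAAT, and the median GC content was 51.2%. A match is a string of letters and no binding was measured. The table had a window for 55 of the 70 members and none for Unc5d, which had the most calls by side.

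Satellite glia wrap the neuron cell bodies, and the only member with its highest level there was Ephb1, an ephrin-B receptor. It had 328 ± 51.4 CPM in satellite glia (lowest, median and highest 239, 322 and 411) and 55.3 ± 9.92 in neurons (41.7, 54.6 and 69.4), and the pools did not overlap. The 13 members higher in satellite glia than in neurons were the receptors Ephb1, Ephb3, Ephb4, Nrp2, Plxnb1, Plxnb2 and Plxnb3 and the ligands Efnb1, Ntn4, Ntng2, Sema3b, Sema4c and Sema6a. All 3 B-type plexins and 3 of 5 EphB receptors were thus in this list. Their satellite glia level was 1.63 to 9.53 times the neuron level, above every neuron marker, with 9.53 for Ephb3, 8.83 for Plxnb3, 6.54 for Sema3b, 5.93 for Ephb1 and 5.47 for Plxnb1.

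Among the named classes, myelinating Schwann cells carried the highest levels of several semaphorins and of Plxnb3, the plexin that binds Sema5a. Clusters of 129 and 110 nuclei in this class were led by Grin2b, as was a group of unnamed nuclei. Those unnamed nuclei, summed, had 779 CPM of Nrp2, 613 of Sema5a, 181 of Sema3b, 153 of Plxnb3, 91.4 of Sema4c and 26.3 of Sema4g. High levels of these genes were thus not particular to the named class. Plxnb3 had 165 ± 39.5 CPM there (lowest, median and highest 117, 161 and 245), 59.7 ± 10.3 in satellite glia and 6.76 ± 1.19 in neurons. Sema5a, a membrane semaphorin, had 1082 ± 107 (933, 1061 and 1352) against 249 ± 22.8 in neurons, so that ligand and receptor were high in the same class. Sema3b, a secreted semaphorin, had 218 ± 34.8 (144, 213 and 285) against 11.4 ± 2.23 in neurons. Nrp2, a co-receptor for secreted semaphorins, had 613 ± 75.5 (458, 626 and 721) against 113 ± 6.36. None of these Schwann cell ranges reached the neuron range. The membrane semaphorins Sema4c (126 ± 23.5 CPM) and Sema4g (50.9 ± 12.8, from 144 UMIs) were 4.57-fold and 5.01-fold their level in the next class. That class was endothelial cells for Sema4c (59 UMIs) and fibroblasts for Sema4g, where the level rests on 1 UMI. Against neurons, 15 of 62 members were higher in all pools in myelinating Schwann cells (11.5% of 14207 genes) and 19 were lower (13.5%). Neuron markers stood at a median of 0.266 of their neuron level in this class, and the 15 members at 2.33 to 24.4 times theirs.

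Vascular nuclei held another set. Nrp1, which also serves vascular growth factor, had 616 ± 158 CPM in endothelial cells (lowest, median and highest 337, 637 and 844) and 84.0 ± 11.9 in neurons (69.6, 84.5 and 101). Slit3 had 827 ± 163 in endothelial cells (628, 756 and 1107) and 96.4 ± 15.7 in neurons, again with no overlap. In mural cells, the contractile cells around vessels, Slit3 reached 6327, from 2636 UMIs, 7.65-fold the endothelial level. The mural class was a single cluster led by Myh11 and Acta2, in which the endothelial list had the largest share of its markers raised. How far endothelial nuclei or RNA were mixed into it was not tested. Fibroblasts had the highest Ntn1, the founding netrin of vertebrates, at 661 from 65 UMIs against 108 in mural cells from 45 UMIs, and with the finer clustering at resolution 2 it was 248. Against neurons, 14 of 63 members were higher in endothelial cells in all pools (9.96% of 14226 genes), among them Ntn4 (23.6-fold), Ephb4 (22.3-fold), Sema5b (21.6-fold) and Plxnd1 (5.86-fold), and 15 were lower (8.66%). Epha2 passed the limit of 100 UMIs through this class, with 84 UMIs in endothelial cells (42.1 ± 18.2 CPM) and 42 in neurons (0.414 ± 0.223). Neuron markers stood at a median of 0.393 of their neuron level in endothelial cells. Epha8, an ephrin-A receptor, was the only member with at least 50 UMIs that was over 4-fold higher in neurons than in every other class, at 1.51 from 164 UMIs against 0.300 from 5 UMIs in satellite glia.

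**Figure D1:**
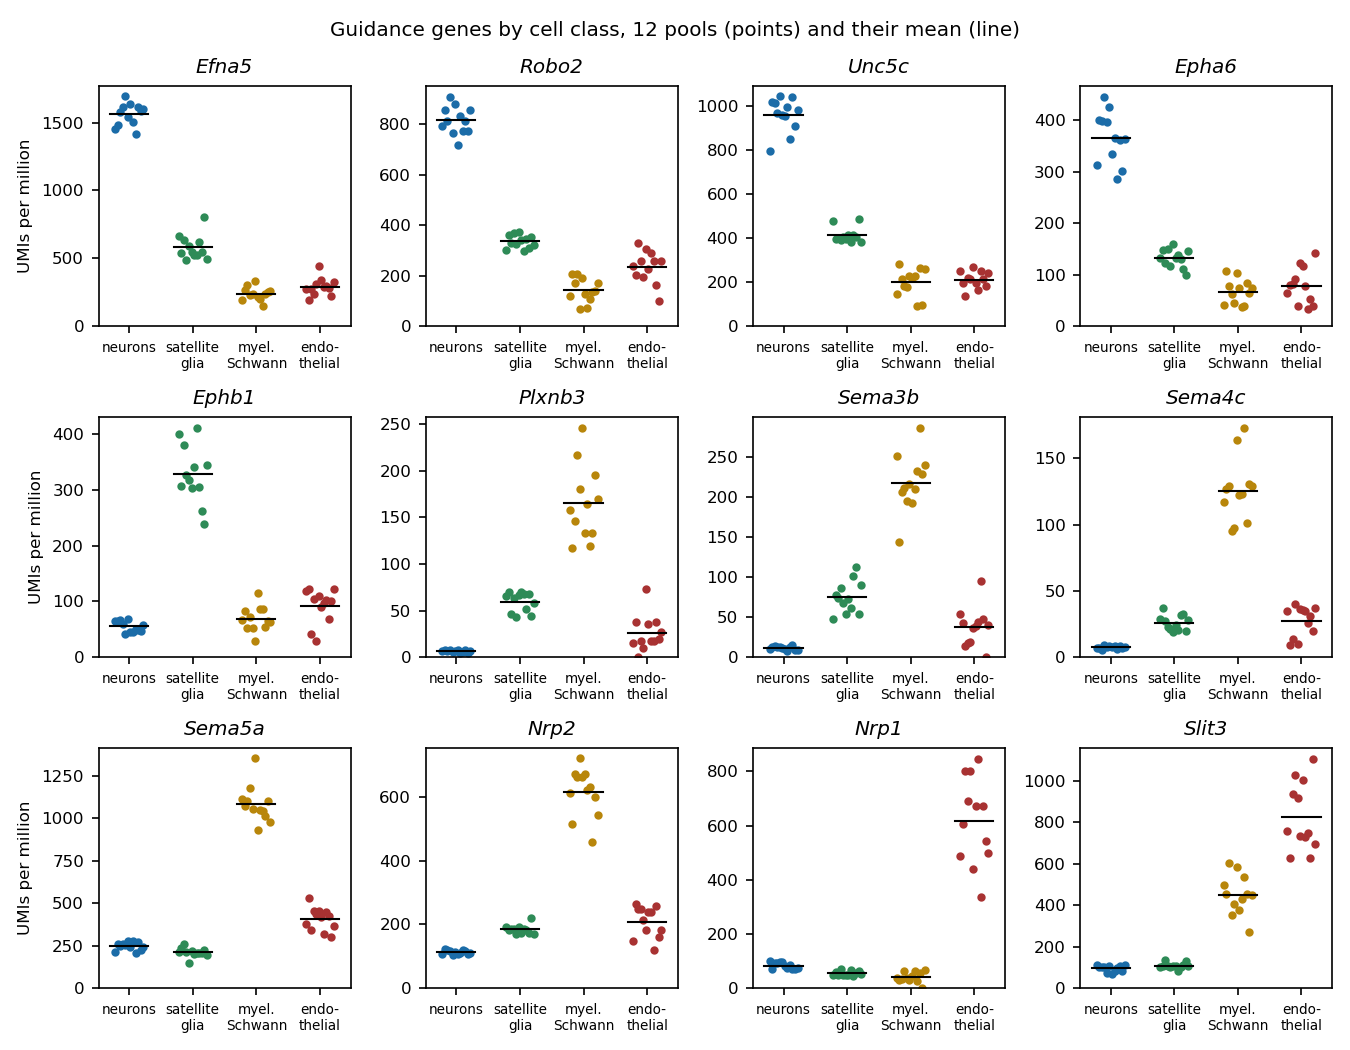
Levels of 12 guidance genes, in CPM of the class (vertical axes, each from 0), in neurons, satellite glia, myelinating Schwann cells and endothelial cells. Points are the 12 pools and lines their means. Efna5, Robo2, Unc5c and Epha6 were highest in neurons, Ephb1 in satellite glia, Plxnb3, Sema3b, Sema4c, Sema5a and Nrp2 in myelinating Schwann cells, and Nrp1 and Slit3 in endothelial cells among these 4 classes.

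Guidance genes were then compared between subclusters of neurons. Neurons formed 26 subclusters of 57 to 3814 nuclei, drawn without the members, and written n0 to n27 by number. Of 40 members with at least 1000 UMIs over all subclusters, 21 reached at least 4-fold the median subcluster in their highest subcluster, where 11.5% of 9034 genes did. The median fold of highest over median subcluster was 4.11 for these members and 1.83 for these genes. Members left out of the clustering can still follow genes that drew it, and so this is a description. The flattest members were Plxna1 (1.53-fold), Sema4d (1.56-fold), Plxna3 (1.77-fold), Ntng2 (1.85-fold), Robo2 (2.03-fold) and Unc5c (2.04-fold).

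The netrin receptor Dcc had the steepest pattern. In n23, a subcluster of 320 nuclei led by Ddc, Dlgap2 and Gata3, it had 613 ± 192 CPM over the 8 pools with at least 20 such nuclei (lowest, median and highest 269.6, 681 and 847), and 18.0 ± 2.53 in the other neurons of these pools. The lowest n23 pool lay above all other-neuron values. The same subcluster held the highest neuronal Ephb1 (371 ± 93.2; 176, 382 and 478), Nrp2 (457 in the summed nuclei) and Sema6a (269). Ddc encodes the enzyme that makes dopamine and serotonin from their precursors, and Gata3 a transcription factor. Genes known from sympathetic neurons and chromaffin cells, chosen after the subcluster's leading genes were seen, were also higher there, so the subcluster is not called nodose. Th, the first enzyme of catecholamine synthesis, had 132 CPM in the summed n23 nuclei and 4.62 in the other neurons. Dbh, which makes noradrenaline, had 50.9 and 0.18, and the noradrenaline transporter Slc6a2 had 114 and 0.218, while Pnmt, which makes adrenaline, was at 0.

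A pair of slits, secreted ligands of Robo receptors, peaked in few neurons. Slit2 had 1264 ± 90.01 in n7, led by Nxph1 and Ptprt (n = 12 pools; 1108, 1268 and 1408), 948 ± 180.4 in n15, led by Pcdh15 and Ndst4 (617, 964 and 1305), and 104 ± 11.7 in neurons outside n7. Ntng1, a membrane-anchored relative of netrins that acts at synapses, followed the same order, with 1242 ± 115 in n7 (1097, 1212 and 1431), 1006 ± 68.5 in n15 (909, 1018 and 1127) and 155 ± 17.3 outside n7. For each gene the pools of both subclusters lay above all values of the remaining neurons. Slit3 was highest in n24, led by Poteg, Kcnj6 and Cdh9, with 928 ± 221 over 4 pools (lowest 726, highest 1236), and next in n15 (610.3 ± 86.2). Nrp1 was also highest in n24, at 730.3 ± 142 over 4 pools against 82.6 ± 9.66 in the other neurons.

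Of the slit receptors, Robo2 had 1600 CPM in the summed nuclei of n15, next to its highest level in n22 (1666). It had 991 in n7 and 814 in n24, where the median subcluster had 820. Robo1 peaked elsewhere. It had 2145 ± 354 CPM in n16, led by Pappa2, Csmd3 and Nox4 (n = 12 pools; 1501, 2165 and 2702), 1453 ± 161 in n22 (n = 10; 1194, 1473 and 1678) and 206 ± 20.0008 in neurons outside n16. Epha5 (624 ± 196; 326, 646 and 982), Epha3 (94.4 ± 46.9; 35.4, 94.8 and 185), both ephrin-A receptors, and the secreted semaphorin Sema3d (389.9 ± 67.5; 259, 385 and 503) were highest in n16 too. Sema3d was nearly as high in n22 (386 ± 91.5), and these 2 groups overlapped. Sema3e was highest in n3, led by Xylt1, Sctr and Cckar, the receptor for cholecystokinin, with 578 ± 40.1 (526.1, 574 and 669.8), next in n7 (330.4 ± 44.5) and at 73.2 ± 12.1 outside n3. Sema5b, a membrane semaphorin, was highest in n15, at 40.6 ± 26.2 with pools from 9.59 to 106 (at resolution 2 its highest subcluster had 70.6). Unc5d was likewise highest in n15 (824 in the summed nuclei) and lowest in n17 (24.5).

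**Figure D2:**
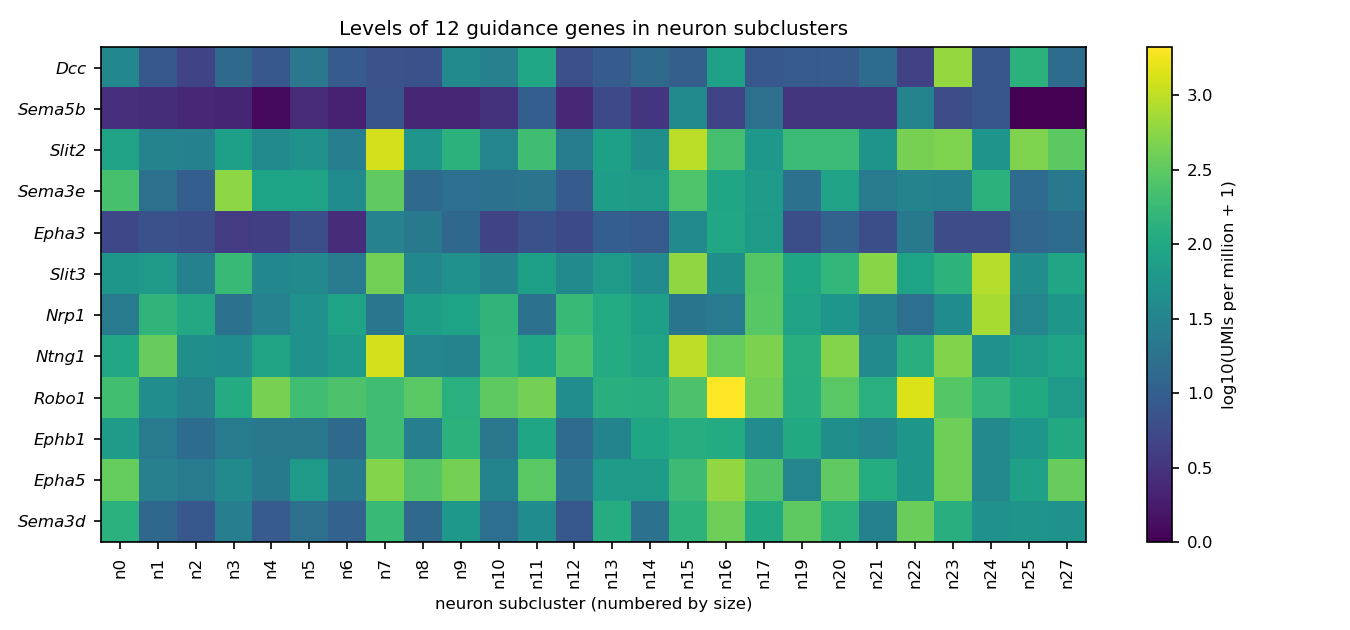
Levels of 12 guidance genes with the steepest patterns (rows) in 26 neuron subclusters (columns), as log10 of 1 plus CPM (colour). Dcc and Ephb1 were highest in n23, Slit2 and Ntng1 in n7 with n15 next, Robo1, Epha3, Epha5 and Sema3d in n16, and Slit3 and Nrp1 in n24.

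Subclusters n9, n17 and n27 carried jugular markers: their 1892 nuclei, 23 to 480 in a pool, had 106 ± 12.6 CPM of Prdm12, a regulator of crest-derived nociceptors, against 3.61 ± 3.19 in other neurons. Of the jugular markers given here Prdm12, Tac1, Calca and Gfra3 were higher there, Mrgprd was near 0 in both and Sst was lower (0.171 ± 0.475 against 0.671 ± 0.395). Of the nodose markers given here P2rx2, Htr3a, Htr3b and Hoxb5 were lower there, and Kcng1 (48.0 ± 23.6 against 19.8 ± 3.57) and Eya2 (8.26 ± 8.11 against 4.95 ± 0.642) had higher means. Netrin receptors of the Unc5 family were low in these jugular-like neurons. Unc5c had 259 ± 44.9 CPM in jugular-like neurons against 1015 ± 54.4 in the others (n = 12 pools; 196 to 332 against 928 to 1096), and Unc5d had 27.7 ± 13.3 CPM in jugular-like neurons against 239.6 ± 26.1 in the others (12.6 to 60.8 against 198 to 304). Efna5 had 533 ± 81.6 CPM in jugular-like neurons against 1639.9 ± 64.2 in the others (424 to 739.8 against 1526 to 1713). The jugular-like pools lay below all other-neuron pools for each of these genes. Plxna4, a plexin that pairs with neuropilins for secreted semaphorins, went the other way, with 1198 ± 111 CPM in jugular-like neurons against 442 ± 29.6 in the others (1021 to 1418 against 396 to 481).

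In all, 10 of 62 members were higher in all 12 pools of jugular-like neurons (3.45% of 14105 genes): Efna1 (5.51-fold), Epha4 (4.56-fold), Ephb2 (4.02-fold), Epha5 (2.74-fold), Plxna4 (2.71-fold), Plxnd1 (2.60-fold), Nrp1 (2.26-fold), Sema6d (2.03-fold), Slit1 (2.01-fold) and Ephb1 (1.9596-fold). Another 9 were lower in all pools (4.18%): beside Unc5d (a ratio of 0.116), Unc5c (0.255) and Efna5 (0.325), these were Epha10 (0.272), Unc5b (0.352), Sema3c (0.499), Sema5a (0.532), Epha7 (0.562) and Efnb2 (0.585). The higher list thus held 4 Eph receptors, 2 plexins and a neuropilin, and the lower list 3 Unc5 and 2 Eph receptors. For some genes the jugular-like subclusters differed. In summed nuclei of n17 and n9, Nrp1 had 286 and 84.6 CPM, Ephb1 39.4 and 136, and Plxnd1 52.3 and 139. Some levels were not particular to these subclusters: Plxna4 was highest in n24 (1590) and Epha5 in n16 (619). Unc5c was lowest in n24 (128), with 156 in n21, 177 in n9 and 387 in n17. Unc5d had 37.3 in n21 and 50.1 in n11, beside 32.6 in n9 and 24.5 in n17. Unc5b had 21.4 in n9 and 5.16 in n17, where the median subcluster had 20.1 and n0 had 6.40. No p is given, because the subclusters came from the same nuclei.

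**Figure D3:**
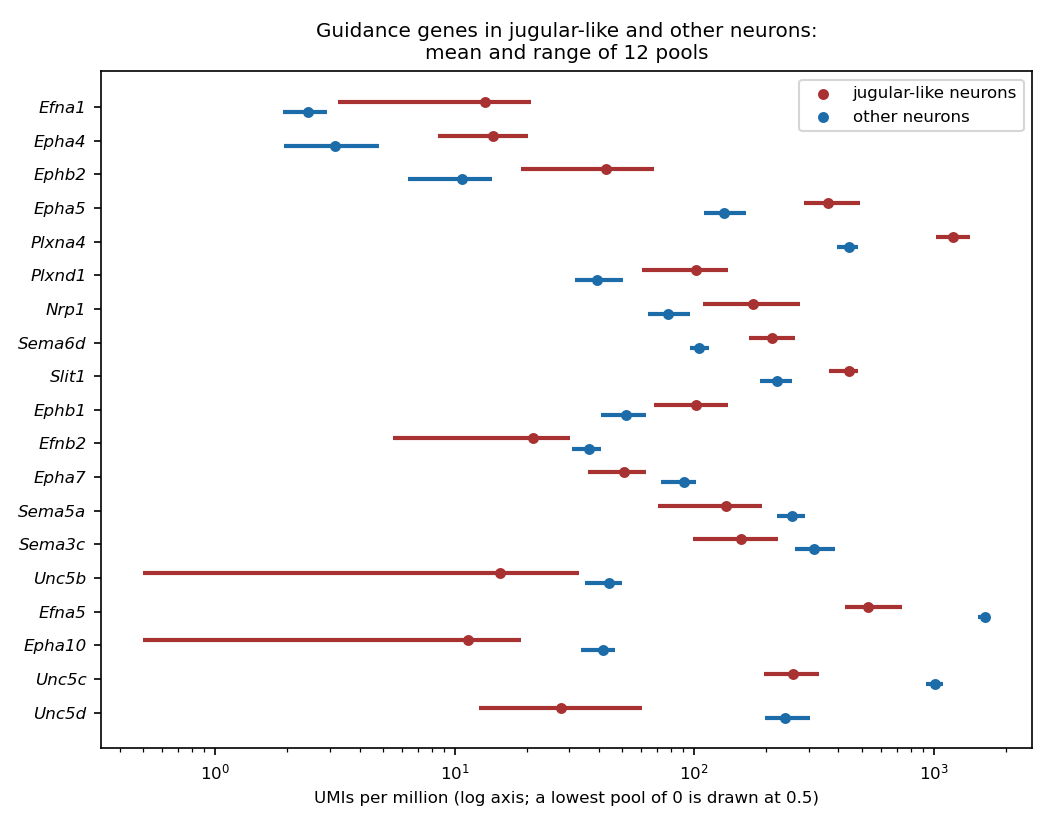
Mean level and range over 12 pools (log axis, CPM; a lowest value of 0 is drawn at 0.5) of the 19 members whose jugular-like and other neurons did not overlap. Efna1, Epha4 and Ephb2 were furthest above the other neurons, and Unc5d, Unc5c and Epha10 furthest below.

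The first comparison of the design asks whether left and right ganglia differ. Over all neurons no member passed the test for side: edgeR's quasi-likelihood test called 0 of 63 members at an adjusted p under 0.05, against 0.141% of 14135 genes. At an unadjusted p under 0.05 there were 10 members, 8 of them higher on the right (6.66% of all genes), and DESeq2 called 2, Sema3e and Robo2 (0.524%). The members' median log2 change was 0.02, and that of all genes -0.00. Sema3e had a lowest, median and highest of 59.1, 88.9 and 96.0 CPM in the 6 left pools and 107, 117 and 128 in the 6 right pools, without overlap. Its log2 difference, right over left, was 0.47 ± 0.09 (SE; edgeR adjusted p = 0.0676, 0.0019 with DESeq2). Subcluster n3, where Sema3e was highest, made up 4.202 ± 0.95% of left neurons and 7.49 ± 0.895% of right neurons (SD, n = 6 pools each). Without n3 the log2 difference was 0.35 ± 0.09 (edgeR adjusted p = 0.377). Jugular markers summed to 30.7 to 239 CPM in left and 54.0 to 99.9 in right neurons, and their part was not tested. Within n3 itself the log2 difference was smaller than its standard error of 0.07, and of 11 subclusters tested 6 were higher and 5 lower on the right, with a median of 0.05. In such sums over all neurons, more nuclei of a kind and more RNA in each cannot be told apart.

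Robo2 had 719, 774 and 811 in left and 812, 856 and 909 in right pools, again without overlap, a log2 difference of 0.15 ± 0.04 (edgeR adjusted p = 0.28, 0.0157 with DESeq2). The next members by p were Epha6 (0.22 ± 0.06, adjusted p = 0.323), Unc5b (0.24 ± 0.07, 0.344) and Sema5a (0.18 ± 0.06, 0.396) in the same edgeR fit. Without n3, where Epha6 was also highest, its difference was 0.13 ± 0.06 (adjusted p = 0.856). All 5 were higher on the right, but the adjusted p of each missed the threshold.

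Inside single neuron subclusters the side comparison did give calls. In 17 subclusters with at least 20 nuclei in every pool, 11 of 558 member tests (49 members) had an edgeR adjusted p under 0.05, where 0.219% of 108067 tests did. With 1 adjustment over all subclusters and genes together 6 were called, and 6 without ML1 and FL1. The calls fell on 6 genes, Robo2, Robo1, Unc5d, Unc5b, Epha7 and Sema3e, 5 of them receptors, in 5 subclusters.

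Robo2 rose on the right in n1, n12 and n14. In n1, led by Itgae, Gpr65 and Chrm2, the left pools had a lowest, median and highest of 1045, 1120.4 and 1164 CPM and the right pools 1227, 1501 and 1664, so that every right pool lay above every left pool. The log2 difference was 0.42 ± 0.06 (edgeR adjusted p = 5.0e-06; 5.2e-05 over all subclusters; 1.7e-05 without ML1 and FL1). In n12, led by Itgae, Ntsr1 and Gpr65, left pools had 611, 838 and 953 and right pools 1017, 1107 and 1172, also without overlap. There the log2 difference was 0.41 ± 0.07 (edgeR adjusted p = 0.000522), and the n1 and n12 calls held with each pool left out in turn. In n14, led by Cartpt, a neuropeptide precursor, the values were 454, 523 and 591 and 625.4, 651 and 686, with no overlap and a log2 difference of 0.31 ± 0.07 (edgeR adjusted p = 0.0456). The n14 call is weak: it held only without ML2 or without FL3 when each pool was left out in turn, and was lost over all subclusters (adjusted p = 0.074) and without ML1 and FL1 (0.462). Satellite glia RNA was also high in n14. Summed over 9 markers it was 477 to 598 CPM in left and 487 to 565 in right pools, against 98.4 to 171 in all neurons. The part of this RNA in the n14 calls was not tested. Across the 17 subclusters Robo2 was higher on the right in 13. The subclusters share the same pools, so such tallies are not independent results.

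Robo1, the other slit receptor, rose on the right in n10, led by Tafa4, Crhr2 and Esr1. Left pools had 164, 253 and 342 and right pools 320.0, 380.2 and 479.9 CPM. These ranges overlapped: 3 right pools lay above every left pool. The female-labelled right pools FR1 (329), FR2 (320) and FR3 (330) lay below the left pool FL2 (342). The log2 difference was 0.67 ± 0.11 (edgeR adjusted p = 5.6e-05), and the call held with each pool left out in turn. Over the 17 subclusters Robo1 was higher on the right in 10 and lower in 7. No slit ligand was called by side in any subcluster.

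Unc5d, a receptor for repulsion by netrins, fell on the right in n1, n4, n10 and n12. In n1 it had 379, 474 and 532 on the left and 296, 345 and 383 on the right, with a narrow overlap and a log2 difference of -0.42 ± 0.08 (edgeR adjusted p = 0.000963), which held with each pool left out in turn. In n4, led by Tafa4, Sctr and Esr1, left pools had 124, 183 and 229 and right pools 100.03, 114 and 138, a log2 difference of -0.59 ± 0.14 (edgeR adjusted p = 0.0188). That call was lost without MR1, ML2, MR2, FL2 or FR3, each left out alone. The n4 left pools also carried more fibroblast markers, 663 to 756 CPM summed over 8 markers, than the right ones, 552 to 662, and their part in the result was not tested. In n12 the log2 difference was -0.40 ± 0.09 (edgeR adjusted p = 0.028; left 250.3, 289 and 365, right 191, 218 and 265) and in n10 -0.43 ± 0.11 (adjusted p = 0.0488; left 265, 375 and 478, right 237, 266 and 329). Over all subclusters these 2 calls were lost (adjusted p = 0.0757 and 0.0989), as they were without ML1 and FL1 (0.119 and 0.15). The n12 call was also lost without ML2, MR2, FL1, FR1 or FL2. The n10 call was also lost with DESeq2 (adjusted p = 0.0898) and held only without ML1, FR1, FR2 or FL3. Unc5d was lower on the right in 15 of the 17 subclusters, which share the same pools. Over all neurons its log2 difference was -0.12 ± 0.07 (edgeR adjusted p = 0.822).

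In n1 a further pair of members rose on the right. Epha7, an ephrin-A receptor, had 179.6, 224 and 277 in left and 259, 296 and 367 in right pools, a log2 difference of 0.45 ± 0.09 (edgeR adjusted p = 0.0028). Its call held with each pool left out in turn and was lost without ML1 and FL1 together (adjusted p = 0.0657). Unc5b had 15.4, 26.2 and 38.0 and 24.8, 42.0 and 54.6, a log2 difference of 0.79 ± 0.21 (edgeR adjusted p = 0.0469), so that Unc5b and Unc5d, relatives with a shared ligand, moved in opposite directions in n1. The Unc5b call was lost over all subclusters (adjusted p = 0.175) and without ML1 and FL1 (0.142), and held only without MR3, FL1, FR1, FL2 or FR2. In n14 Sema3e had 26.8, 46.7 and 59.0 and 39.6, 80.8 and 108, a log2 difference of 0.83 ± 0.20 (edgeR adjusted p = 0.0435; 0.0705 over all subclusters; 0.145 without ML1 and FL1) with overlapping sides, a call that held only without ML2, FL1, FL3 or FR3.

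**Figure D4:**
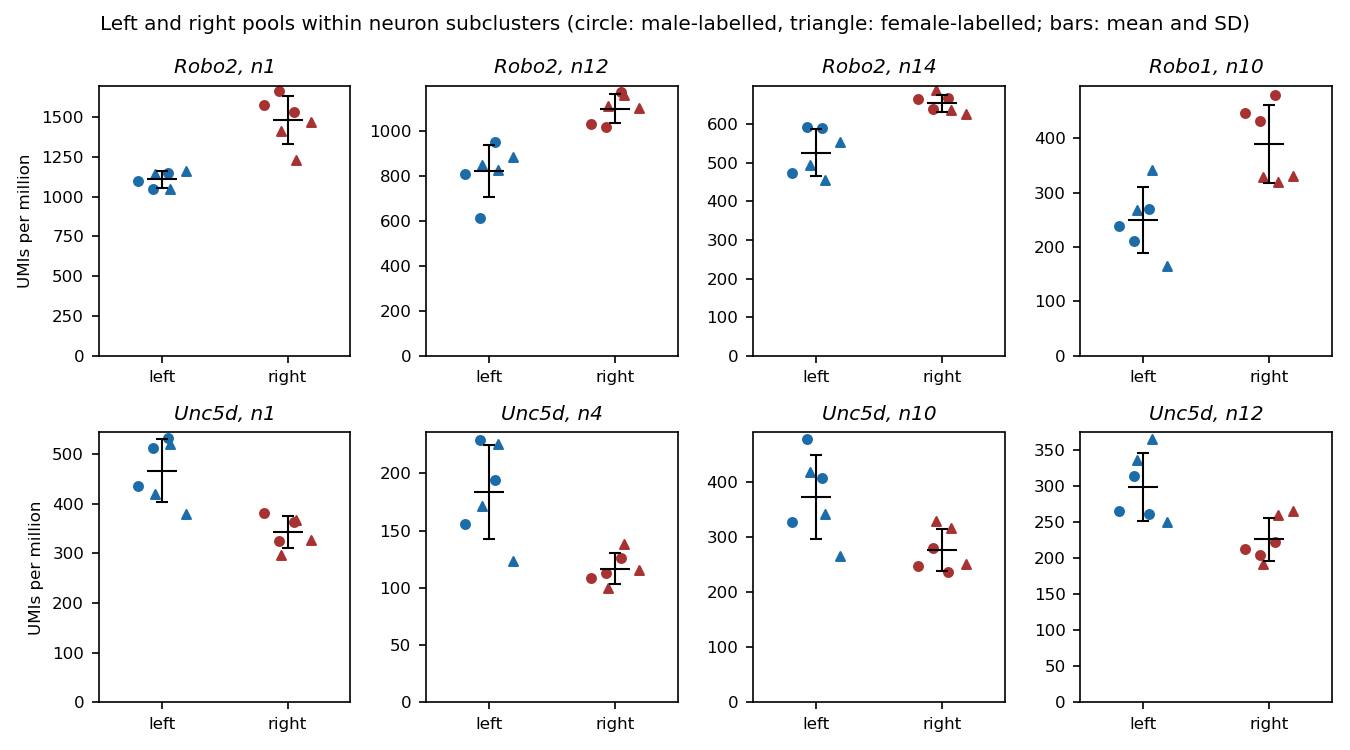
Levels of Robo2, Robo1 and Unc5d (CPM) in left and right pools for 8 of the called tests by side, 1 panel each; points are 6 pools a side and bars the mean ± SD. Right pools were higher for Robo2 and Robo1 and lower for Unc5d, and in the Robo2 panels the sides did not overlap.

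The second comparison asks whether ganglia of the sexes differ. Its fits treat all pools of a label as separate, though left and right pools would draw on the same rats. No term for shared rats was fitted, so the p-values by labelled sex, here and in the subclusters, can be too small. Over all neurons edgeR called no gene and none of 63 members by labelled sex (0 of 14135 genes). At an unadjusted p under 0.05 there were 17 members, 2 of them higher in female-labelled pools, where 17.4% of all genes had such a p. DESeq2 called 5, Ntng1, Epha6, Nrp1, Ephb1 and Robo1, and 2.42% of all genes. The members' median log2 change, female-labelled over male-labelled, was -0.11, and that of all genes -0.00. Depth moved with the label: female-labelled pools had 3786 to 5167 UMIs per neuron and male-labelled pools 2973 to 4459.9, and its part in these results was not tested.

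Ntng1 had a lowest, median and highest of 188, 202 and 224 CPM in male-labelled and 162, 178 and 202 in female-labelled pools, a log2 difference of -0.23 ± 0.05 (edgeR adjusted p = 0.0645). Epha6 had 313, 400.2 and 446 and 285, 348 and 366, a difference of -0.26 ± 0.06 (adjusted p = 0.0724; 0.0271 without ML1 and FL1, which passes). The ranges of both genes overlapped between labels. Nrp1 (-0.29 ± 0.08, adjusted p = 0.0946), Ephb1 (-0.34 ± 0.09, 0.108) and Robo1 (-0.21 ± 0.06, 0.121; 0.0425 without both pools) followed in the same edgeR fit. For the other genes the edgeR adjusted p rose without both pools, to 0.0949 for Ntng1, 0.162 for Nrp1 and 0.222 for Ephb1.

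In the 17 subclusters 4 of 558 member tests were called by labelled sex, where 0.197% of 108067 tests were, and 3 with 1 adjustment over all of them. Without ML1 and FL1 there were 11 calls. Epha6 accounted for 3 of the 4 and fell in female-labelled pools each time. In n10 male-labelled pools had 295, 307 and 356 and female-labelled pools 129.9, 212 and 265 CPM, without overlap, a log2 difference of -0.57 ± 0.11 (edgeR adjusted p = 0.00397; 0.00168 without ML1 and FL1), and this call held with each pool left out in turn. In n2, led by Cysltr2 and Gdpd4, the values were 197, 292 and 328 and 150.01, 198 and 235, with overlap and a log2 difference of -0.52 ± 0.11 (edgeR adjusted p = 0.0421; 6.5e-05 without ML1 and FL1). In n12 they were 179.8, 245 and 283 and 119, 156 and 198, a log2 difference of -0.55 ± 0.11 (edgeR adjusted p = 0.0426; 0.105 with DESeq2; 9.9e-06 without ML1 and FL1). With single pools left out, the n2 call held only without ML1, MR1, FL1 or FR3, and the n12 call only without ML1, MR1 or FL1.

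Epha6 was lower in female-labelled pools in 16 of 17 subclusters, which share the same pools. Fibroblast markers in n2 were also lower there, at 311 to 358 CPM summed over 8 markers against 369.9 to 429 in male-labelled pools, and their part was not tested. The other call was Plxna1, a plexin that pairs with neuropilins, in n0, led by Fhip1a and Kirrel3. Male-labelled pools had 123, 125 and 142 and female-labelled pools 76.0, 96.1 and 119, without overlap, a log2 difference of -0.43 ± 0.10 (edgeR adjusted p = 0.0278; 0.0542 over all subclusters, where the call was lost). It held only without MR1, FL1, FR2 or FR3 when pools were left out in turn, and over the 17 subclusters Plxna1 was lower in female-labelled pools in 9 and higher in 8.

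**Figure D5:**
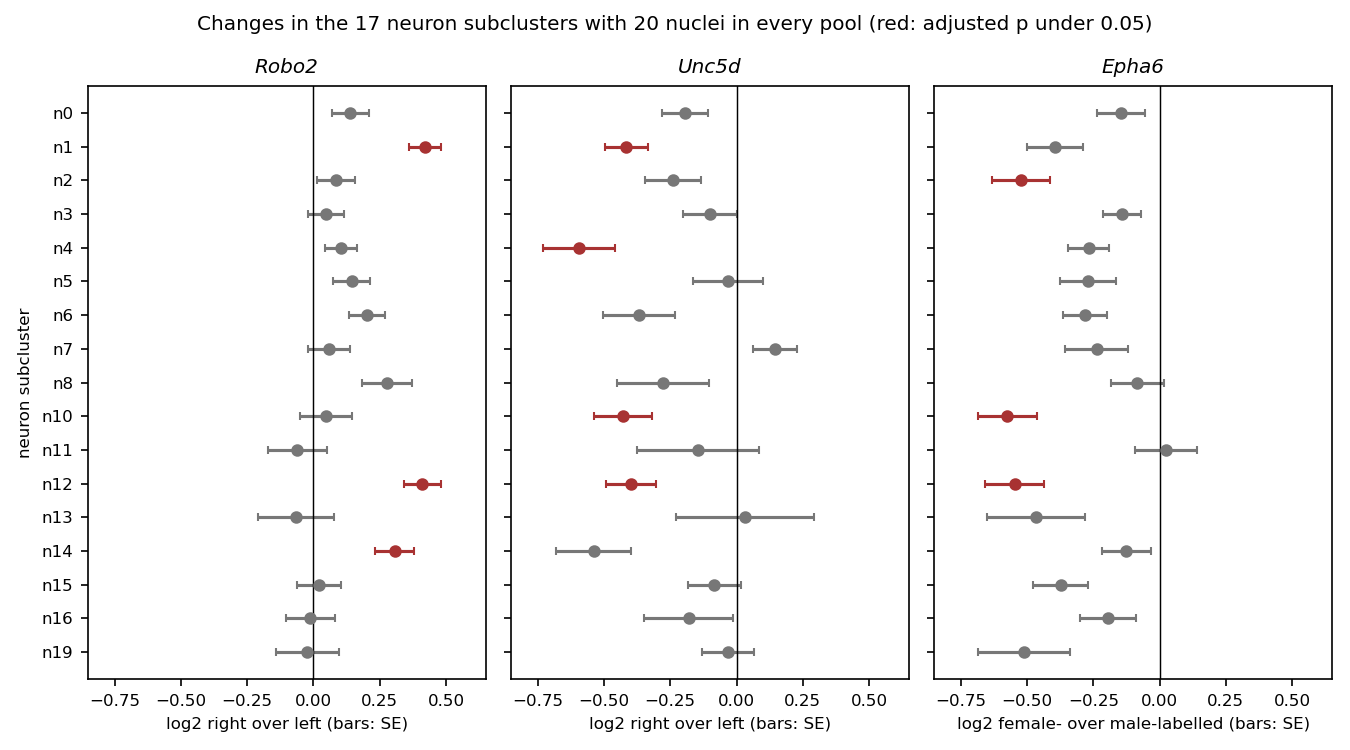
Log2 differences ± SE from edgeR in 17 neuron subclusters for Robo2 by side, Unc5d by side (right over left) and Epha6 by labelled sex (female-labelled over male-labelled); red marks an adjusted p under 0.05. Robo2 lay above 0 in 13 subclusters, Unc5d below 0 in 15 and Epha6 below 0 in 16. The subclusters share the same pools and are not independent.

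The side difference was not detectably different between the labelled sexes. For the interaction in neurons edgeR and DESeq2 called none of 63 members (0 of 14135 genes), and 1 had an unadjusted p under 0.05 (4.34% of all genes). In satellite glia 50 members were tested and edgeR and DESeq2 called 0 by side (0 of 9796 genes; 5 members and 4.95% of all genes at an unadjusted p under 0.05) and 0 by labelled sex (0 of 9796; 2 members, 5.63%). In myelinating Schwann cells 36 were tested, with 0 called by side (0 of 5594; 5 members and 4.54% at an unadjusted p under 0.05) and 0 by labelled sex (0 of 5594; 4 members, 5.35%) by either tool. In endothelial cells 32 were tested, with 0 called by side (0 of 4292; 2 members, 5.22%) and 0 by labelled sex (0 of 4292; 1 member, 3.22%) by either tool. Glial and endothelial pools held far fewer nuclei than neurons, and a p that misses the threshold does not show equal levels.

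The rest of the guidance machinery was read from the same fits in neurons. Of 22 other guidance ligands and receptors 20 were tested in neurons, and edgeR called none for side, with 1 at an unadjusted p under 0.05, and none for labelled sex, with 2. Of 47 cytoplasmic guidance effectors 44 were tested, and edgeR called 1 for side and 0 for labelled sex. Over all 14135 genes it called 0.141% for side and 0 for labelled sex. The effectors' unadjusted p was under 0.05 in 7 cases for side, 5 of them with the higher level in right pools, and in 9 for labelled sex, beside the shares of 6.66% and 17.4% over all genes. The members not tested in neurons for want of counts were Efna3, Efna4, Efnb3, Epha1, Epha2, Ntn5 and Robo3, with 5 to 58 UMIs. The sublibraries split the mixed nuclei of all pools and so show only the spread of the steps after mixing. For 40 members with at least 1000 neuron UMIs, the median coefficient of variation was 4.03% over the 8 sublibraries and 11.5% over the 12 pools, and it was larger over pools in 39.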

How the data were processed

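The authors deposited UMI counts per nucleus and gene, with no normalisation: the matrix sums equalled the deposited transcript counts in all 36741 nuclei. Per the submitters' processing notes, mRatBN7.2, R 4.3.2 and Seurat 4.1.3 were used. The sources used here do not name the aligner, annotation, barcode filter or use of strand, so reads of overlapping antisense genes cannot be told apart.

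Nuclei under 300 genes or over 5% mitochondrial UMIs were dropped, as were 2 doublet calls. Clustering used scanpy 1.11.5 and leidenalg 0.10.2 (3000 variable genes, 30 principal components, 20 neighbours, resolution 1), without the 70 members. Counts were summed by pool and class and tested with edgeR 4.0.16 (quasi-likelihood, TMM, filterByExpr, side and labelled sex as terms) under R 4.3.3, with Benjamini-Hochberg adjustment over all genes of a fit, and DESeq2 1.42.0 as alternative. The p-values measure the spread between pools. Scripts were tested on simulated data.

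Named were members called in any comparison, the 5 smallest p in neurons for each factor, members at least 4-fold every other class with 50 UMIs, the 12 steepest over subclusters with 100 UMIs, and known partners. The members and lists were chosen with earlier results of these data known.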

Additional observations from a re-analysis of the deposited data

Results flagged for a closer look

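Dixon's test for a value far from the rest was run on the named members, in 50 groups of 6 pools and 12 groups of 8 sublibraries, and marked 4 values, where chance marks about 1 group in 20. Among male-labelled pools, Epha6 in neurons was lowest in ML1, at 313 CPM, 1 of the 2 pools whose Y-linked RNA went against the label. Nrp1 in neurons was lowest in MR1, at 70.8. Ephb1 in neurons was lowest in ML3, at 41.7. Plxna1 in neurons was lowest in sublibrary 1 of 8, at 125.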

How the results depend on the processing

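No named change reversed its direction under the alternatives run for it, which for changes within subclusters leave out the other clusterings, where only counts were compared. Of the named members' changes across alternatives, 346 kept their side of the threshold, 77 lost the call and 23 gained it, and the cause was not tested. DESeq2 gave no adjusted p for Plxna1 by labelled sex in n0 or Unc5b by side in n1, and these fits were counted among the 346. In neurons, members called by side numbered 0 in the reported analysis, 2 with DESeq2 and 1 with no low-count filter, and 0 to 1 with each pool left out (1 without ML1 or ML3, Sema3e). By labelled sex they numbered 0, 5 with DESeq2, 6 with no low-count filter, 2 without ML1 and FL1, and 0 to 3 with each pool left out (3 without MR1). In subclusters, 11 calls by side became 6 without ML1 and FL1, 5 at resolution 0.5, 6 with the top doublet scores removed and 6 with 1 adjustment over all subclusters, which was chosen after seeing the data. With each pool left out there were 5 to 11 (5 without MR2, 6 without MR1 or FL2, 7 without ML2 or ML3). The 4 calls by labelled sex became 11 without ML1 and FL1, and 2 each at resolution 0.5, at resolution 2, with the members in the clustering, with the top doublet scores removed and with at least 1000 genes per nucleus. With each pool left out there were 1 to 7 (1 without ML2, MR2, MR3, FL2 or FL3, 2 without ML3, FR1 or FR2, 7 without MR1 or FL1). The counts of members apart from satellite glia, 17 and 13, became 17 to 18 and 13 to 14 with each pool left out.

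Same-numbered left and right pools deviated together with r from −0.10 to 0.15 in neurons, so the numbers were not taken as pairs, and 2 of 12 pools correlated best with the other side's pool of their own number. With the replicate block, 13 subcluster tests were called by side (Unc5d in n10 was not, adjusted p = 0.0607), and none in neurons, satellite glia, myelinating Schwann cells or endothelial cells. Endothelial cells could not be fitted with at least 1000 genes per nucleus, for want of nuclei. Depth limits the fibroblast and mural levels, and 7 members had too few UMIs to be tested in neurons.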

Other observations

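Nuclei left without a class name also held guidance RNA. A group of 761 nuclei in 3 clusters, led by Grin2b, Adarb2 and Prkcq, had 779 CPM of the neuropilin Nrp2, 613 of Sema5a, 346 of Sema6d, 316 of Sema3c, 291 of Slit3, 181 of Sema3b, 153 of Plxnb3 and 146 of Ephb2. A group of 649 nuclei led by Lypd1, Th and Tyrp1 had 723 of Robo2, 434 of Unc5c and 224 of Nrp2. These nuclei entered no comparison, and the genes named here were chosen after their values were seen.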
